A study of Homo sapiens with 6 samples.

Results

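The lysosome is the acidic compartment in which cells break down proteins, lipids and sugars. Its vacuolar proton pump, the V-ATPase, couples ATP hydrolysis in a cytosolic V1 sector to proton transport through a membrane-embedded V0 sector, and the acid it makes allows the cathepsin proteases to mature and act. LAMP1 and LAMP2 are the abundant glycoproteins that line the lysosomal membrane. In lung, alveolar type II cells keep their surfactant in lysosome-related lamellar bodies, and cathepsin H takes part there in processing surfactant protein B.

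The genes described here are those whose single annotated symbol begins with ATP6V0, ATP6V1, ATP6AP1 or ATP6AP2, those named CTS plus 1 letter, and LAMP1 and LAMP2. The rule found 42 of the 18417 genes read by the array. They are 8 V0 subunits, 12 V1 subunits, 2 accessory subunits, 11 cysteine cathepsins, 4 aspartic or serine cathepsins, 2 LAMPs and 3 genes that enter by symbol alone. Those 3 are 2 long noncoding RNAs, ATP6V0E2-AS1 and ATP6AP1-DT, and the transcribed pseudogene ATP6AP1L. The other 39 are protein-coding.

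The tested cells were H441, an established human lung adenocarcinoma line, transfected with a SMARTpool of siRNAs against ETS2, which encodes an ETS-family transcription factor. The control cells were H441 given scrambled siRNA with the same reagent, Lipofectamine RNAiMAX. RNA was taken 48 h after transfection in both groups, and each group held 3 arrays, each from its own transfection. The comparison is of 1 cell line and 1 siRNA pool with 1 control, and the knockdown was partial, with ETS2 at 48.4% of its control level (8.87, 8.70 and 8.78 after ETS2 siRNA, against 9.79, 9.91 and 9.79 in control cells; limma adjusted p = 0.000254).

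Levels are RMA values in log2 units, with 1 probe set per gene, called a probe here. Differences are ETS2 siRNA minus control, so that -1 would be a halving. They come with 95% intervals and with p-values from limma's moderated test, adjusted over all 18417 genes by Benjamini-Hochberg, and a gene is said to have changed at an adjusted p under 0.05. The background floor, a log2 level of 6.67, is the 95th percentile of 341 olfactory receptor genes. At least 1 group mean lay above it for 38 of the 42 genes. The 4 below it were ATP6V0D2, ATP6V1C2, ATP6V1G3 and CTSG. Array medians over all genes lay between 8.07 and 8.10.

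Epithelial markers of the line were high on all arrays, with KRT8 between 13.32 and 13.40 and EPCAM between 12.85 and 12.95. Of the alveolar and club cell markers, NKX2-1, SFTPB, NAPSA and SLC34A2 lay above the floor, while the mean levels of SFTPC, SCGB1A1 and SCGB3A2 lay below it in both groups. LAMP2 and CTSH, taken as markers of the gene set, lay above the floor on all 6 arrays.

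Many lysosomal genes carry an E-box, CACGTG, near their start. In its longer CLEAR form, TCACGTGA with a further G before and C after it, it is the element bound by TFEB, a transcription factor of lysosome biogenesis. Both strands of the window from 250 bases before to 50 after each RefSeq start (GRCh38.p14) were searched. Windows were available for 28 of the 42 genes, and a gene with several starts counted once. LAMP2, ATP6V1C1, CTSB and CTSK were among the genes without a window, so they were not searched. CACGTG was found in 8 of the 28 (28.6%), against 8.77% of the 27305 genes with a window. That larger set was not limited to genes read by the array. The flanked form TCACGTGA was found in 4 (14.3%), against 1.18%, and the CLEAR form in 1 (3.57%), that of ATP6V1G1, against 0.421%. These motifs contain one another, so the counts overlap. The letters CCGGAAG, a common form of the ETS binding site, were found in 2 (7.14%), ATP6V0D1 and ATP6V1D, against 12.2% of all genes. Such matches describe the sequence and do not show binding.

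Stretches of the 4 genes with TCACGTGA are shown as the closest matches to the longer element, which most of the 28 windows lack, together with the E-box of ATP6V0E2, whose transcript changed. LAMP1 holds a second TCACGTGA, at -2 and running across the start, which is not printed. Each is written 5′ to 3′ on the gene's strand, with the motif in capitals, and none runs past the annotated start. The ATP6V0D1 stretch is chr16:67481170-67481257 on the minus strand. The others are on the plus strand, ATP6V1G1 at chr9:114587670-114587757, CTSA at chr20:45891269-45891334, LAMP1 at chr13:113297170-113297238 and ATP6V0E2 at chr7:149872856-149872941.
ATP6V0D1: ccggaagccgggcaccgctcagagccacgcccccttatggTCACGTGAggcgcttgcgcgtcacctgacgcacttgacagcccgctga
ATP6V1G1: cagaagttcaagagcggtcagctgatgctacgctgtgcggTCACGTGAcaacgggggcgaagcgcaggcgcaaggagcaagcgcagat
CTSA: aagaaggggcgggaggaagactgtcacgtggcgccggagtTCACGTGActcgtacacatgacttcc
LAMP1: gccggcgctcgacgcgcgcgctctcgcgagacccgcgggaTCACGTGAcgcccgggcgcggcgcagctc
ATP6V0E2: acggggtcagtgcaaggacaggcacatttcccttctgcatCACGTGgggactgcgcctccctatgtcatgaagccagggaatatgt
The ATP6V0D1 stretch opens with the ETS letters, at -100 from the start, with the E-box motif at -60. The differences of these 4 genes were 0.02 for ATP6V0D1, -0.0033 for ATP6V1G1, -0.01 for CTSA and 0.03 for LAMP1, with adjusted p between 0.798 and 0.982 by limma.

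Most of these genes kept levels close to those of control cells after ETS2 siRNA. Of the 42, 3 fell and 0 rose in limma's test, a share of 7.14%, against 4.91% of all genes called in either direction, 2.63% called lower and 2.28% called higher. Among genes above the floor, 6.79% were called. The 3 that fell were LAMP2, the V0 subunit gene ATP6V0E2 and the V1 subunit gene ATP6V1C1, each to between 86.5% and 88.3% of its control level. At an unadjusted p under 0.05 there were 9 members, 1 higher and 8 lower (21.4%, against 18.5% of all genes and 23.4% of those above the floor). The median difference was -0.0083 over the members and 0.0033 over all genes (0.0017 and 0.0133 with arrays centred on their medians), and the median size of a difference was 0.0383 over the members and 0.0533 over all genes. The 95% intervals of all 42 lay between -0.40 and 0.23, that is, between 0.760 and 1.17 times the control level. Each array reads RNA of a whole culture, so fewer cells with a transcript and less of it per cell cannot be told apart.

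The 3 calls were sensitive to single arrays. With any 1 of the 6 arrays left out, LAMP2 and ATP6V1C1 were no longer called (adjusted p between 0.0697 and 0.148, and between 0.0790 and 0.127), and ATP6V0E2 was called only without control replicate 2 (adjusted p = 0.0319, and between 0.0556 and 0.127 otherwise). All 3 were also lost with the replicate number as a block (adjusted p between 0.0581 and 0.0794). Over these refits and rescalings their differences lay between -0.23 and -0.16. Several refits alter only the test and not the difference. Leaving out an array cannot turn the sign where groups do not overlap. The shared sign therefore adds no support to the calls.

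**Figure D1:**
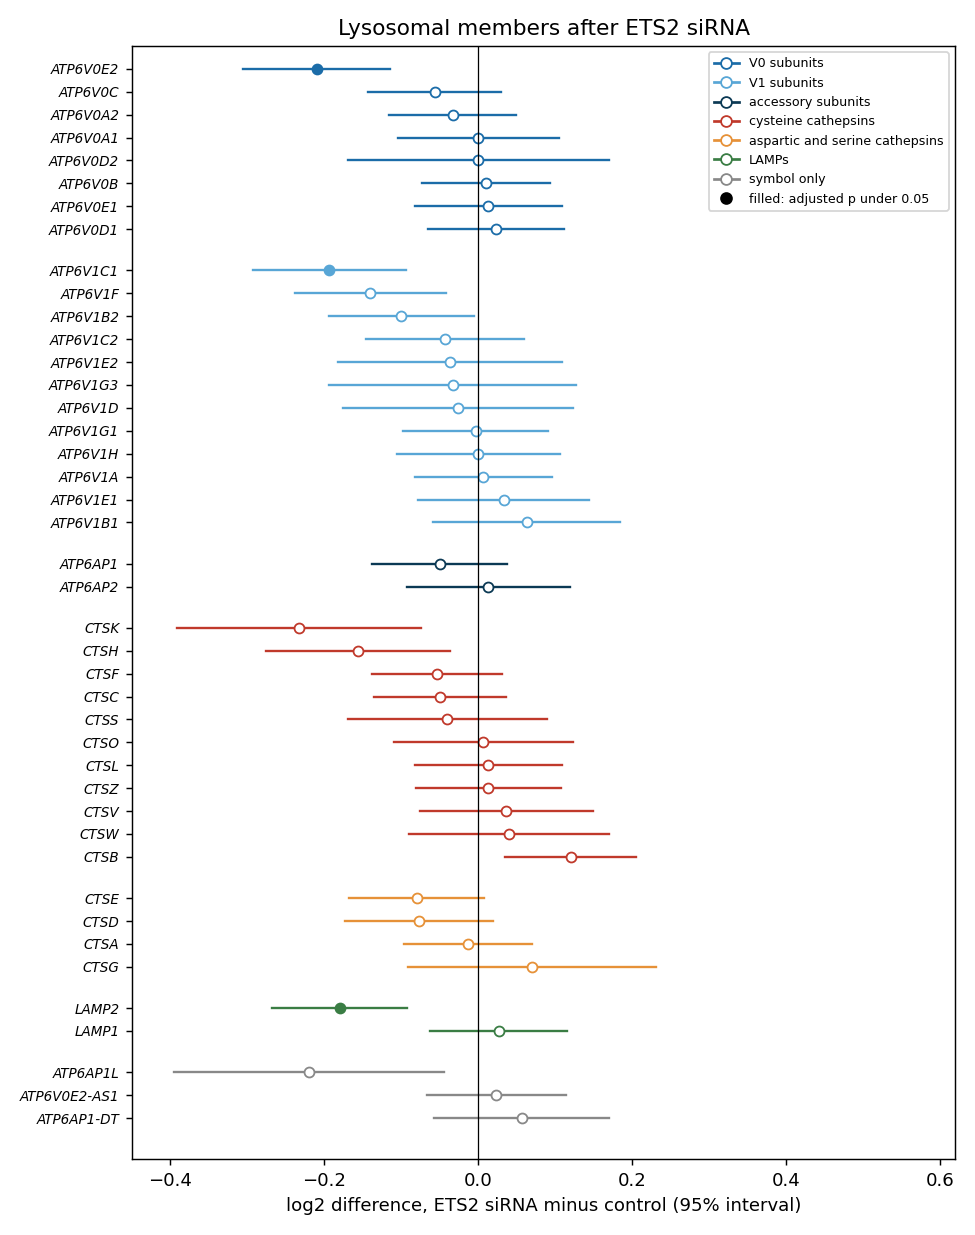
Log2 difference of each of the 42 genes (x axis, ETS2 siRNA minus control) with its 95% interval, grouped by role. Filled points are LAMP2, ATP6V0E2 and ATP6V1C1, which had an adjusted p under 0.05, and all 42 intervals lie between -0.40 and 0.23.

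The groups did not overlap for 14 of the 42 genes (33.3%), against 23.1% of all genes. Of these, 13 were lower after ETS2 siRNA (31.0%, against 11.5% of all genes) and 1, CTSB, was higher (2.38%, against 11.6%). With arrays centred on their medians the shares were 23.8% of members and 10.3% of all genes lower, and 2.38% and 13.7% higher. Scaled on ribosomal protein genes, they were 23.8% and 8.98% lower, and 7.14% and 15.3% higher. Limited to genes above the floor, without rescaling, they were 34.21% and 14.49% lower, and 2.632% and 14.71% higher. In either direction, groups lay apart for 36.8% of members above the floor and 29.2% of all genes above it.

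LAMP2, which protects the lysosomal membrane and in its A isoform is the receptor of chaperone-mediated autophagy, read 10.16, 10.15 and 10.11 after ETS2 siRNA, against 10.34, 10.33 and 10.29 in control cells. The highest array after ETS2 siRNA thus lay below the lowest control array. Its mean was 10.14 ± 0.03 after ETS2 siRNA and 10.32 ± 0.03 in control cells (SD, n = 3 each), a difference of -0.18 (SE 0.0381, 95% interval -0.27 to -0.09, limma adjusted p = 0.0363). A single probe reads LAMP2, so its isoforms were not read apart. LAMP1, its close relative in the same membrane, read 11.27, 11.33 and 11.29 after ETS2 siRNA, against 11.24, 11.29 and 11.28 in control cells, and the groups overlapped. Its difference was 0.03 (95% interval -0.06 to 0.12, adjusted p = 0.798). Taken as LAMP2 relative to LAMP1 on the same array, the groups again did not overlap, and the shift was -0.21 (exact permutation p = 0.1, two-sided, the smallest that 3 arrays against 3 allow, and 0.1 adjusted over the 2 pairs compared, which were chosen after their values were seen).

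**Figure D2:**
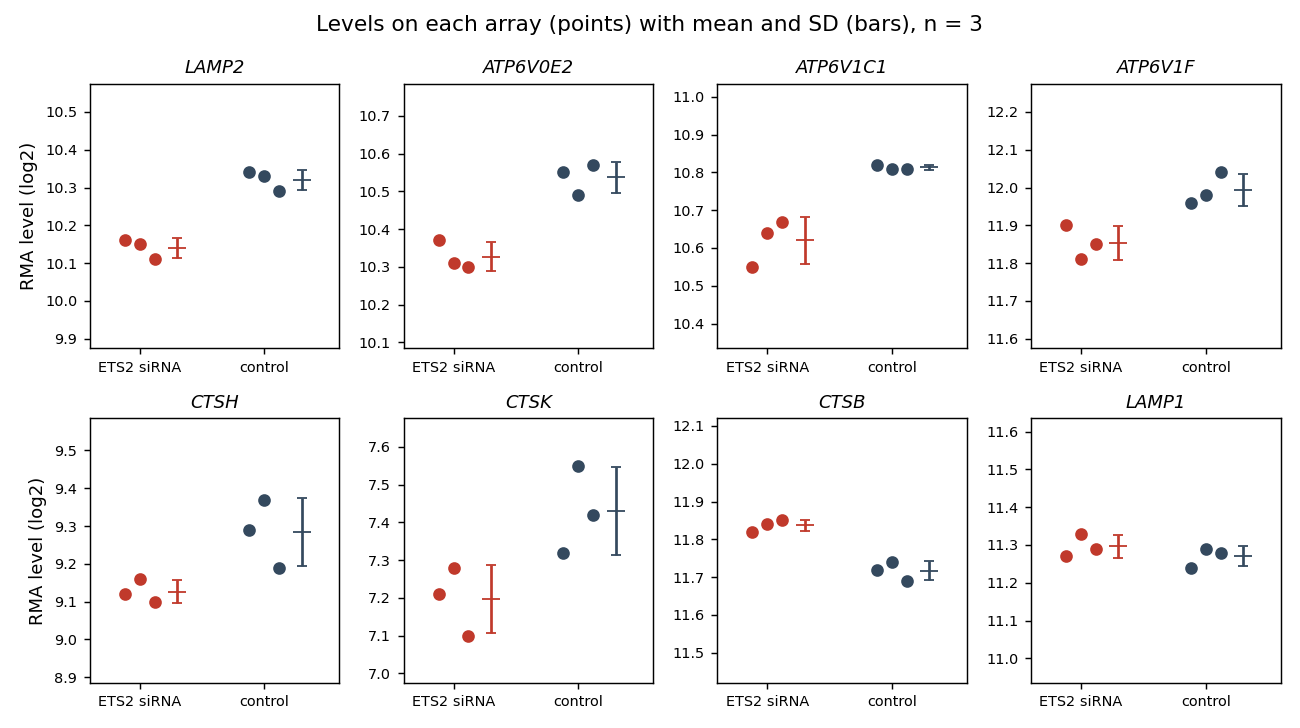
RMA levels (y axis, log2) of 8 genes on each array, ETS2 siRNA left of control, with mean and SD of 3 arrays beside the points. LAMP2, ATP6V0E2, ATP6V1C1, ATP6V1F, CTSH and CTSK are lower on all ETS2 siRNA arrays than on any control array, CTSB is higher, and the LAMP1 groups overlap.

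Of the 8 V0 genes, 1 fell (12.5%, against 4.91% of all genes called), and their median difference was 0. ATP6V0E2, an isoform of the small membrane subunit e, read 10.37, 10.31 and 10.30 after ETS2 siRNA, against 10.55, 10.49 and 10.57 in control cells, with no overlap. The difference was -0.21 (SE 0.0417, 95% interval -0.31 to -0.11, limma adjusted p = 0.0294). The other e isoform, ATP6V0E1, had overlapping groups and a difference of 0.01 (interval -0.08 to 0.11). ATP6V0E2 relative to ATP6V0E1 on the same array shifted by -0.22, without overlap (exact permutation p = 0.1, and 0.1 adjusted over the 2 pairs). That p is the smallest the design allows, and this pair too was chosen after its values were seen. ATP6V0E2-AS1, a noncoding RNA annotated beside ATP6V0E2, read 8.45, 8.37 and 8.42 after ETS2 siRNA, against 8.38, 8.41 and 8.38 in control cells, a difference of 0.02 (adjusted p = 0.833).

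ATP6V0C, the proteolipid that forms most of the rotating ring, read 12.49, 12.54 and 12.48 after ETS2 siRNA, against 12.57, 12.55 and 12.56 in control cells. These groups just failed to overlap, and the difference of -0.06 did not pass the test (adjusted p = 0.506). The second ring subunit ATP6V0B stood at 0.01, the stalk-coupling subunit ATP6V0D1 at 0.02, and the large a subunits ATP6V0A1 and ATP6V0A2, which carry the proton half-channels, at 0 and -0.03. The widest V0 interval, -0.17 to 0.17, belonged to ATP6V0D2, a d isoform below the floor.

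Of the 12 V1 genes, 1 fell (8.33%, against 4.91% of all genes called). Their differences were negative for 8, positive for 3 and 0 for 1, with a median of -0.03. ATP6V1C1, the C subunit, whose yeast counterpart leaves the pump when its sectors come apart, read 10.55, 10.64 and 10.67 after ETS2 siRNA, against 10.82, 10.81 and 10.81 in control cells. The control arrays were nearly equal, and all 3 arrays with ETS2 siRNA lay below them. The difference was -0.19 (SE 0.0432, 95% interval -0.29 to -0.09, limma adjusted p = 0.0444), and the call was also lost with arrays centred on their medians (adjusted p = 0.0626) or scaled on ribosomal protein genes (adjusted p = 0.0815).

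ATP6V1F, a subunit of the central stalk, read 11.90, 11.81 and 11.85 after ETS2 siRNA, against 11.96, 11.98 and 12.04 in control cells. Its groups did not overlap, with a difference of -0.14 (interval -0.24 to -0.04) that did not pass the test (adjusted p = 0.118). It passed when the variance model followed the intensity (adjusted p = 0.00636). ATP6V1B2, the broadly expressed form of the nucleotide-binding B subunit, also had no overlap and stood at -0.10 (adjusted p = 0.238), while the B1 form, known from acid-secreting epithelia, stood at 0.06 with overlapping groups. The catalytic subunit ATP6V1A read 10.81, 10.83 and 10.87 after ETS2 siRNA, against 10.80, 10.84 and 10.85 in control cells, a difference of 0.0067 with an interval from -0.08 to 0.10. The remaining 7 V1 genes, ATP6V1C2, ATP6V1D, ATP6V1E1, ATP6V1E2, ATP6V1G1, ATP6V1G3 and ATP6V1H, had overlapping groups and differences between -0.04 and 0.03.

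Of the accessory subunits, ATP6AP1, which helps the V0 sector assemble, stood at -0.05 (11.97, 11.90 and 11.91 after ETS2 siRNA, against 11.98, 11.97 and 11.98 in control cells; adjusted p = 0.573). ATP6AP2, also known as the prorenin receptor, stood at 0.01 (11.04, 11.01 and 11.02 after ETS2 siRNA, against 10.95, 11.09 and 10.99 in control cells; adjusted p = 0.930). The groups overlapped for both genes. ATP6AP1L read 7.22, 7.26 and 7.27 after ETS2 siRNA, against 7.39, 7.66 and 7.36 in control cells, with no overlap. Its difference of -0.22 did not pass the test (adjusted p = 0.160), control replicate 2 stood above the other controls, and a second, dimmer probe read 0.04. ATP6AP1-DT read 8.50, 8.33 and 8.41 after ETS2 siRNA, against 8.36, 8.37 and 8.34 in control cells, with overlap and a difference of 0.06 (adjusted p = 0.629).

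None of the 15 cathepsin genes passed limma's test. An unadjusted p under 0.05 was found for 3, CTSH, CTSK and CTSB. That is 20%, against 18.5% of all genes and 23.4% of those above the floor. The differences of the 15 ran from -0.23 to 0.12, with a median of -0.0133. CTSH, an aminopeptidase among the cysteine cathepsins, read 9.12, 9.16 and 9.10 after ETS2 siRNA, against 9.29, 9.37 and 9.19 in control cells. All arrays with ETS2 siRNA lay below the controls, and control replicate 3 came nearest to them. The difference was -0.16 (SE 0.0520, 95% interval -0.28 to -0.04, limma adjusted p = 0.146). SFTPB, which encodes surfactant protein B, read 9.37, 9.32 and 9.36 after ETS2 siRNA, against 9.66, 9.66 and 9.80 in control cells, a difference of -0.36 (adjusted p = 0.00770).

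CTSK, the collagen-degrading cathepsin best known from osteoclasts, read 7.21, 7.28 and 7.10 after ETS2 siRNA, against 7.32, 7.55 and 7.42 in control cells. It had the most negative difference of the 42 genes, -0.23 (SE 0.0689, 95% interval -0.39 to -0.07), but its arrays were also among the most scattered and it did not pass the test (adjusted p = 0.107). CTSB, an abundant cathepsin that also acts as a carboxydipeptidase, read 11.82, 11.84 and 11.85 after ETS2 siRNA, against 11.72, 11.74 and 11.69 in control cells. It was the only one of the 42 genes with all ETS2 siRNA arrays above all controls. Its difference of 0.12 (SE 0.0369, 95% interval 0.04 to 0.20) did not pass the test (adjusted p = 0.119), but passed when the variance model followed the intensity (adjusted p = 0.00645).

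CTSC, the dipeptidyl peptidase that activates granule serine proteases, read 12.60, 12.63 and 12.60 after ETS2 siRNA, against 12.64, 12.65 and 12.69 in control cells. CTSF, a cathepsin close to the floor in both groups, read 6.72, 6.67 and 6.70 after ETS2 siRNA, against 6.74, 6.76 and 6.75 in control cells. Both pairs of groups stood apart by small margins, at differences of -0.05 and -0.05 (adjusted p = 0.562 and 0.524). The remaining 6 cysteine cathepsins were CTSL, a broadly acting endopeptidase, CTSS, which trims the invariant chain of MHC class II, CTSZ, a carboxypeptidase, and CTSO, CTSV and CTSW. Their groups overlapped and their differences ran from -0.04 to 0.04.

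CTSD, the main aspartic protease of lysosomes, read 11.78, 11.71 and 11.67 after ETS2 siRNA, against 11.79, 11.81 and 11.79 in control cells, a difference of -0.08 (interval -0.17 to 0.02, adjusted p = 0.397). CTSE, an aspartic protease of endosomes, read 7.36, 7.40 and 7.35 after ETS2 siRNA, against 7.47, 7.42 and 7.46 in control cells, a difference of -0.08 (interval -0.17 to 0.0076, adjusted p = 0.319). Neither gene's groups overlapped. CTSA, a serine carboxypeptidase that also stabilises lysosomal neuraminidase, stood at -0.01, and CTSG, a serine protease of neutrophil granules that lay below the floor, at 0.07. Their groups overlapped.

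Macrophages are rich in cathepsins, so their markers were read on the same arrays. Of 18 macrophage markers, 8 lay above the floor, 0 were called by limma and 2 had an unadjusted p under 0.05 (11.1%, against 18.5% of all genes). Those above the floor were CD14, CD68, MARCO, ITGAM, CSF1R, TYROBP, C1QC and SPI1. Some lay close to it, such as C1QC, at 6.85 after ETS2 siRNA and 6.83 in control cells, and CD14, at 6.91 and 6.86. TYROBP averaged 8.13 after ETS2 siRNA and 8.10 in control cells, and SPI1, a myeloid transcription factor, 7.56 after ETS2 siRNA and 7.54 in control cells. PTPRC, which marks all leukocytes, CD163, MRC1 and the remaining 7 lay below it in both groups. The log2 of the summed levels ran from 12.04 to 12.13 after ETS2 siRNA and from 11.96 to 12.01 in control cells. Bright genes weigh most in such a sum, and the median difference of the 18 markers was 0.0217. CD68, an endosomal glycoprotein that epithelial cells also make, was the brightest, at 11.47, 11.51 and 11.39 after ETS2 siRNA, against 11.29, 11.35 and 11.23 in control cells (difference 0.17, adjusted p = 0.107). ITGAM stood at -0.16 (adjusted p = 0.122). Of 15 fibroblast and endothelial markers, 6 lay above the floor, 0 were called and 3 had an unadjusted p under 0.05 (20%, against 18.5% of all genes). They were KDR at -0.18, FAP at 0.19 and TEK at -0.15, and FAP and TEK lay below the floor in both groups. The log2 of the summed levels of the 15 ran from 11.36 to 11.39 after ETS2 siRNA and from 11.41 to 11.46 in control cells. The part of these markers in the results was not tested.

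The wider lysosomal pathway was read from 7 lists with 180 measured entries outside the 42 genes. Of 32 acid hydrolases and activators, 27 had a negative difference, against 8688 of all 18417 genes, and the median was -0.0683, against 0.0033 over all genes. Of the 32, 4 fell and 0 rose (12.5%, against 4.91% of all genes and 6.79% of those above the floor). At an unadjusted p under 0.05 there were 10, all lower (31.2%, against 18.5% and 23.4%). These are counts, and no test of the list as a whole was run. ACP2, the lysosomal acid phosphatase, read 9.63, 9.56 and 9.59 after ETS2 siRNA, against 9.87, 10.05 and 9.91 in control cells, a difference of -0.35 (SE 0.0537, limma adjusted p = 0.0116). FUCA1, an alpha-fucosidase, fell by 0.21, PLA2G15, a lysosomal phospholipase, by 0.21 and LIPA, the acid lipase that hydrolyses cholesteryl esters, by 0.20 (adjusted p between 0.0219 and 0.0396). All 3 lost their call with the replicate number as a block (adjusted p = 0.0649, 0.0666 and 0.0529), and FUCA1 also with arrays centred on their medians (adjusted p = 0.0524) or scaled on ribosomal protein genes (adjusted p = 0.0703). The list's median was below 0 in the 14 alternatives fitted by gene, at -0.0408 without control replicate 2 and between -0.0817 and -0.0483 otherwise. All of these reuse the same arrays, and several alter only the test and not the median. The shared sign therefore adds no support.

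Other lysosomal membrane proteins went both ways, 1 higher and 2 lower of 26 (11.5%, against 4.91% of all genes called), with a median of 0. SLC17A5, the sialic acid exporter, rose by 0.25, LAPTM4A fell by 0.24 and the sialomucin CD164 fell by 0.18. Among 14 partners and assembly factors of the V-ATPase, 1 rose and 2 fell (21.4%), with a median of -0.08. OXR1, a TLDc-domain protein, fell by 0.33 (8.92, 8.91 and 8.90 after ETS2 siRNA, against 9.15, 9.30 and 9.28 in control cells; adjusted p = 0.00960) and ROGDI by 0.23, while MEAK7, another TLDc-domain protein, rose by 0.24. TCIRG1, which encodes the a3 isoform of the V0 a subunit under a symbol outside the naming rule, stood at 0.0033 (interval -0.08 to 0.09).

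Cystatins and other cathepsin inhibitors had 0 of 18 called by limma and a median of 0.0367. At an unadjusted p under 0.05 there was 1 (5.56%, against 18.5% of all genes). CST6, cystatin E/M, came closest at 0.12 (adjusted p = 0.148), followed by CST7 at 0.12 (adjusted p = 0.277). In the list of TFEB relatives and the lysosomal mTORC1 machinery, 2 of 24 rose and 1 fell, with a median of 0.0017. That is 12.5% called, against 4.91% of all genes. MITF, a TFEB-family transcription factor, fell by 0.26 (9.80, 9.81 and 9.89 after ETS2 siRNA, against 10.06, 10.11 and 10.11 in control cells; adjusted p = 0.0137), LAMTOR3, a Ragulator scaffold subunit, rose by 0.18 and the GTPase RRAGC by 0.17. Of 25 genes of mannose 6-phosphate tagging and sorting, 1 fell (4%), AP1M2, the epithelial medium chain of the AP-1 sorting adaptor. It read 9.42, 9.39 and 9.32 after ETS2 siRNA, against 9.82, 10 and 9.90 in control cells, a difference of -0.53 (SE 0.0547, limma adjusted p = 0.00234). Of 41 autophagy genes, 1 fell (2.44%), ATG14, a subunit of the class III phosphatidylinositol 3-kinase complex, by 0.24, with a list median of -0.0067.

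Of the 18 changed genes named from these lists and from the identity markers described next, AP1M2 and SFTPB were called with any 1 array left out. OXR1 lost its call without ETS2 siRNA replicate 3 (adjusted p = 0.0567), and ACP2 without ETS2 siRNA replicate 2 or 3 (adjusted p up to 0.0622). MITF, SLC17A5 and SLC34A2 lost theirs without any of 3 arrays, ATG14, LAPTM4A, LIPA, MEAK7 and ROGDI without any of 5, and the remaining 6 genes without any of the 6 (adjusted p up to 0.174 over all 18). The replicate block removed 8 of the 18 calls, those of FUCA1, PLA2G15, LIPA, CD164, LAMTOR3, RRAGC, ATG14 and ABCA3 (adjusted p between 0.0529 and 0.0938).

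**Figure D3:**
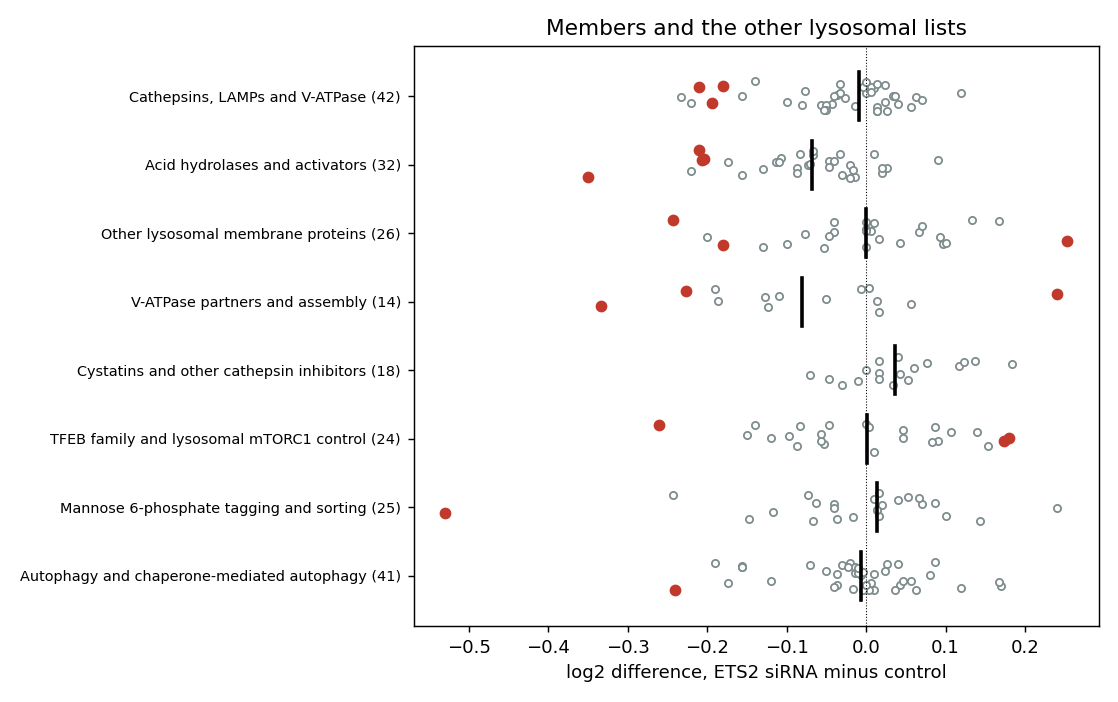
Log2 differences (x axis, ETS2 siRNA minus control) of the 42 genes and of the 7 other lysosomal lists, with the number of genes in brackets and a black bar at each median. Red points had an adjusted p under 0.05. The acid hydrolases have a median of -0.0683, the 42 genes one of -0.0083.

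Of the 18 epithelial, alveolar and club cell identity genes, CTSH among them, 3 fell and 0 rose (16.7%, against 4.91% of all genes called). They were SFTPB, the phosphate transporter SLC34A2 (-0.29) and ABCA3, a lipid transporter of lamellar bodies (-0.20). The list median was -0.0683, with 11 differences negative and 7 positive. The groups did not overlap for 6 genes that were lower (33.3%, against 11.5% of all genes and 14.49% of those above the floor). For 3 others they lay apart with ETS2 siRNA higher (16.7%, against 11.6% and 14.71%). Those 3 were KRT19 at 0.11 (limma adjusted p = 0.182), CDH1 at 0.06 and KRT7 at 0.04, and none was called. The log2 of the summed levels of the 18 ran from 16.14 to 16.17 after ETS2 siRNA and from 16.17 to 16.19 in control cells. The lamellar body protein LAMP3 read 7.29, 7.33 and 7.18 after ETS2 siRNA, against 7.20, 7.56 and 7.34 in control cells, and the groups overlapped.

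**Figure D4:**
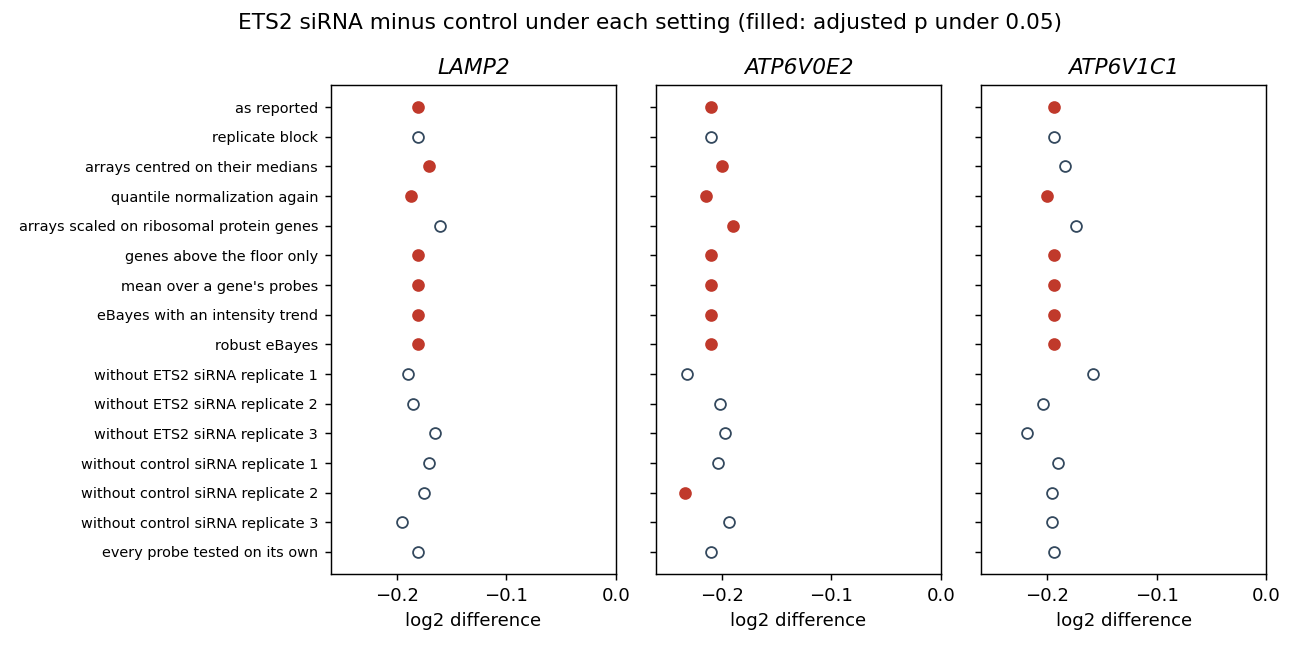
Log2 difference (x axis, ETS2 siRNA minus control) of LAMP2, ATP6V0E2 and ATP6V1C1 as reported and under each of 15 other settings (y axis), filled where the adjusted p was under 0.05. All points lie between -0.23 and -0.16, and 1 of the 18 leave-one-out points is filled, ATP6V0E2 without control replicate 2.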

How the data were processed

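The deposited table holds log2 levels of 33297 probes on 6 arrays. They were made by the authors with RMA, per the submitters' processing notes. RMA's version and settings were not given in the sources used here. Its quantile step can remove a shift common to most genes, and folds of dim genes are understated. With 6 arrays, precision is limited by their number. Of the probes, 19460 carry 1 gene symbol, and 19429 of these matched a RefSeq gene of GRCh38.p14, used for names, biotypes and promoter windows. The brightest probe per gene, by its mean over 6 arrays, left 18417 genes. Dim genes were kept.

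Differences were fitted with limma 3.58.1 in R 4.3.3 (lmFit and eBayes, two-sided, Benjamini-Hochberg over all genes), a procedure tested on simulated data. P-values measure the spread between transfections of 1 cell line. The genes and lists were chosen with earlier results of these data known, and no set test was run. The genes named with all array values were LAMP2, CTSH, every changed member, and the 2 members of each role class with the smallest p; per list, up to 4 changed genes were named, or the 2 with the smallest p. Other genes with array values had groups that did not overlap, or were chosen after their values were seen (ATP6V1A, ATP6V0E2-AS1, LAMP3). The alternatives tried were a replicate block, 3 rescalings, a filter at the floor, averaging the probes of a gene, testing each probe singly, 2 variance models and each array left out. Promoter sequences are RefSeq's.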

Additional observations from a re-analysis of the deposited data

How the results depend on the processing

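Instead of 3 members, 0 were called with the replicate block, 1 with arrays scaled on ribosomal protein genes (ATP6V0E2), 5 with an intensity trend in the variance (ATP6V1F and CTSB besides), 0 with every probe tested on its own, which tests more features, and between 0 and 1 with an array left out; between 8 and 12 members had an unadjusted p under 0.05 in these fits by gene, and 9 of 43 member probes in the fit by probe. The 904 changed genes, 420 higher and 484 lower, became 604 with the replicate block, 1397 with genes below the floor left out, 1963 with an intensity trend, 399 with every probe tested singly and between 213 and 735 with an array left out. Scaled on ribosomal protein genes, 524 were higher and 385 lower. The members' median of -0.0083 was 0.0017 with arrays centred on their medians and 0.0117 when scaled on ribosomal protein genes, with all genes at 0.0133 and 0.0233, and ran from -0.0408 (without control replicate 1) to -0.0042 with an array left out. ATP6AP2, at 0.01, ran from -0.0167 (without control replicate 1) to 0.0533 (without control replicate 2). Of the 18 changed list genes, 8 lost their call with the replicate block, 2 with arrays centred (FUCA1 and CD164), 4 scaled on ribosomal protein genes (these and ROGDI and ABCA3), 1 with robust variances (RRAGC) and 12 with every probe tested singly. The cause of these changes was not tested. Equal replicate numbers were not taken as pairs in the main fit. Deviations of same-numbered arrays from their group means correlated at 0.177, 0.181 and 0.0352, and those of other pairs between -0.198 and 0.0659. ETS2 siRNA replicates 1 and 2 correlated best with their own number, and replicate 3 slightly better with control replicate 2 (0.0409). Whether the arrays are paired cannot be told from these values, and the replicate block allows for it. LAMP2 relative to LAMP1 ran from -0.23 to -0.18 and ATP6V0E2 relative to ATP6V0E1 from -0.26 to -0.19 with an array left out.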

Other observations

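ATP6V1G2, a G subunit isoform known from neurons, is read by 3 probes that also carry the symbol of a read-through transcript, ATP6V1G2-DDX39B, and so stayed outside the 42 genes. These 3 probes hold 2 distinct readings, with differences of -0.21 and -0.34 and adjusted p of 0.308 and 0.261 by limma over all probes. The brighter of the readings was 6.66, 6.57 and 6.33 after ETS2 siRNA, against 6.97, 6.97 and 6.65 in control cells, which overlapped by 0.01. Values of ATP6V0A4 were not analysed here.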
